A study of Mus musculus with 18 samples.

Results

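The transforming growth factor beta (TGF-beta) system was described here through 10 genes. Among them were the ligands Tgfb1, Tgfb2 and Tgfb3, the receptors Tgfbr1, Tgfbr2 and Tgfbr3, and the latency protein Ltbp1. The others were Smad7 and Tmeff1, listed as feedback genes, and the target gene Tgfbi. The 10 genes were taken by name, out of 52958 gene symbols in dermal papilla cells (DP) and 27933 in hair follicle stem cells (HFSC). All 10 were found in both, and all 10 passed the filter on low counts in both. The study had 18 RNA-seq libraries from female mice in 9 groups of 2, of which 8 were of DP, the mesenchymal cells that signal to the follicle, and 10 of HFSC, its epithelial stem cells. Both populations were purified by flow cytometry. Sham and adrenalectomised (ADX) groups of both cell types came from wild type C57BL/6 mice, and HFSC had a further C57BL/6 wild type group that was fed corticosterone after adrenalectomy (ADX+CORT). Adrenalectomy removes the main source of corticosterone, the glucocorticoid hormone of mice. In the other experiment the glucocorticoid receptor (GR) was deleted in Pdgfra-CreER; GR fl/fl mice (GR KO), with wild type mice as Control. Both of these groups had the strain background 129/C57BL/6 and received tamoxifen by intraperitoneal injection for 6 days. The Cre is driven by Pdgfra, a gene of dermal cells, so HFSC of GR KO mice are not the cells aimed at. Ages are not given in the labels, nor do they say that the 2 libraries of a group came from separate animals. The p-values therefore measure only the spread between these libraries, which may be technical.

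TGF-beta ligands are secreted bound to their own propeptide and, through it, to latent TGF-beta binding proteins that anchor them in the matrix until they are released. Released ligand binds the type II receptor, which recruits and activates the type I receptor, and SMAD proteins carry the signal to the nucleus, where it induces its own inhibitors. In the hair follicle, TGF-beta 2 from the dermal papilla is known as a signal that activates stem cells against the quiescence imposed by bone morphogenetic proteins, and Tmeff1 is known as a gene that it induces in them.

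Libraries held 6194705 to 13941962 counts in DP and 14067139 to 33014976 in HFSC. Nr3c1, which encodes GR, stood at 671 and 978 CPM (read counts per 1000000 of the TMM-scaled library size) in Control DP and at 137 and 111 CPM in GR KO DP. In HFSC it stood at 257.5 and 338 CPM in Control and at 243 and 170 CPM in GR KO. Values given for HFSC after GR deletion come from mice of this genotype, and whether the gene was deleted in HFSC was not tested. All 17 dermal papilla markers were detected in every DP group and all 14 stem cell markers in every HFSC group. Markers of other cells were present in DP and uneven between libraries. In summed CPM these were 368 to 9799 for 11 pericyte and smooth muscle genes, 40.6 to 2712 for 12 immune genes, 65.95 to 5696 for 12 genes of the differentiated epidermis and 4.36 to 463 for 8 skeletal muscle genes. The sums of 10 endothelial and 7 melanocyte genes stayed at 32.0 to 127 and 30.04 to 92.8 CPM in DP. In HFSC the 11 immune genes measured summed to 2184 to 2679 CPM in Control and GR KO but to 57.9 to 162 CPM in the other groups. The 17 dermal papilla markers summed to 132 to 402 CPM in HFSC libraries, in which the stem cell markers summed to 28590 to 63270 CPM. The remaining lists in HFSC summed to 207 to 428 CPM for 10 dermal fibroblast genes, 160.1 to 374 for pericyte, 11.4 to 81.8 for endothelial, 106 to 183 for melanocyte, 9.34 to 18.4 for muscle and 2838 to 9191 for epidermal genes.

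Of the 10 genes, Tgfbi alone passed the test in any comparison, and it did so in DP after GR deletion. In that comparison 8 of the 10 had higher values than in Control and 2 had lower ones, with a median log2 fold change of 0.83 beside 0.17 over all genes tested. Calls are those with an edgeR quasi-likelihood p-value, adjusted by Benjamini-Hochberg over all genes of the cell type, under 0.05. They were 1 of 10 here and 1.54% of all genes tested. Both GR KO libraries lay above both Control libraries for 6 genes (Tgfb1, Tgfbr1, Tgfbr2, Tgfbr3, Tmeff1 and Tgfbi), as they did for 31.6% of all genes tested. For Tgfb2 and Smad7 both lay below, as they did for 20% of all genes tested. Of the 361 calls, 180 were higher (0.767% of genes tested) and 181 lower (0.771%). The 4 calls in DP after adrenalectomy (0.017% of genes tested, 0.0128% higher and 0.00426% lower) held none of the 10 genes. There 8 of the 10 had lower values, 2 without overlap between libraries (19.4% of all genes tested) and 1 with both ADX libraries higher (23.9%), and the median was −0.28 beside 0.08. At an unadjusted p under 0.05 there were 3 of the 10 genes after GR deletion (15.2% of all genes tested) and 1 after adrenalectomy (11.7%).

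In HFSC no gene of the 10 passed in edgeR at these settings. After adrenalectomy 0.295% of all genes tested were called (0.282% higher, 0.0131% lower). Both ADX libraries lay above both Sham libraries for 1 of the 10 genes and below for 3, against 25.5% and 23.9% of all genes tested. After GR deletion 0.985% were called (0.67% higher, 0.315% lower), and both libraries lay above Control for 3 and below for 1, against 19.3% and 19.1%. For ADX+CORT no gene was called in edgeR (0%) against either ADX or Sham. At an unadjusted p under 0.05 there were 2941 genes (19.3%) against ADX and 927 (6.09%) against Sham, and DESeq2 called 1278 and 53. Of the 10 genes, 3 had both ADX+CORT libraries above both ADX libraries and none below, against 26.7% and 25.8% of all genes tested. Against Sham 1 lay above and 2 below, against 21.5% and 19.1%. Medians over the 10 genes were −0.13 after adrenalectomy, 0.17 for ADX+CORT against ADX, 0.10 against Sham and −0.06 after GR deletion, with medians over all genes between 0 and 0.01. The comparisons of ADX with Sham and of ADX+CORT with ADX share the ADX libraries.

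**Figure D1:**
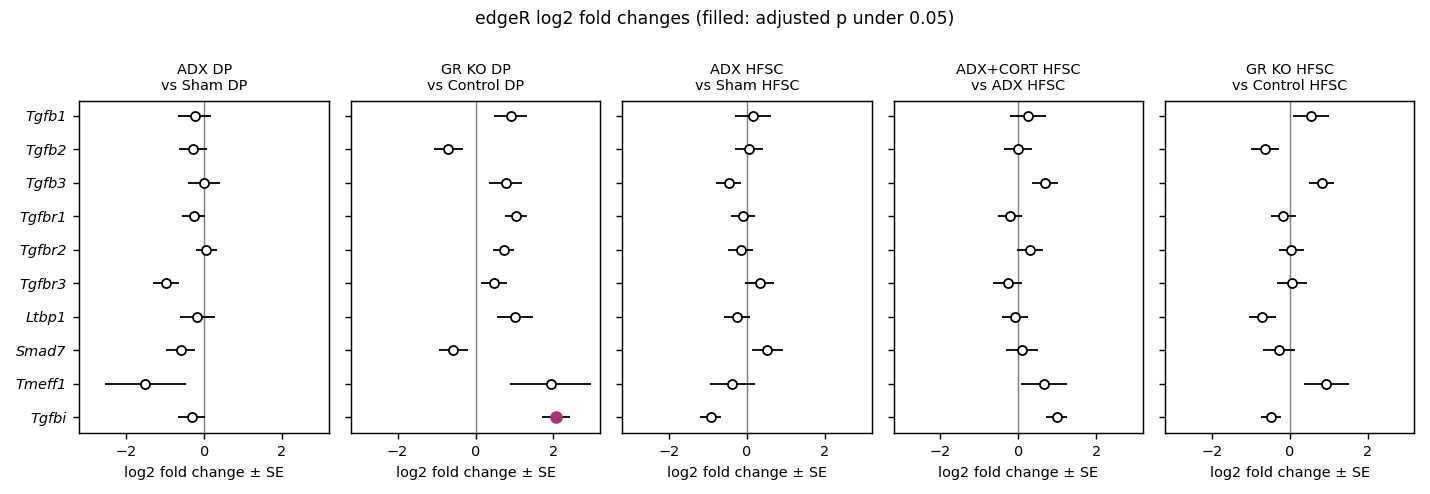
Log2 fold change of each gene (x axis) with its standard error (bars) in 5 comparisons, from edgeR, with a filled point where the adjusted p was under 0.05. The only filled point is Tgfbi in GR KO DP (2.06), and the widest bars belong to Tmeff1.

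Levels of different genes were set in order per length, as TPM (counts over annotated length, scaled to the same total in every library), over all libraries of a cell type. In DP, Ltbp1 and Tgfbi came first with means of 189 and 178 TPM (SD 98.5 and 106, n = 8). Tgfbr2 (80.9), Tgfb2 (78.7) and Tgfbr3 (57.0 TPM) followed, then Tgfb1 (35.4), Tgfbr1 (34.4) and Tgfb3 (31.7 TPM). Smad7 (8.68 TPM) and Tmeff1 (3.38 TPM) came last. The order rests on means over groups that differ: Tgfbr2 was above Tgfb2 in 2 of 8 libraries, both of GR KO (203 and 124 against 84.3 and 51.5 TPM), and its median was 58.2 against 81.4 TPM. Of neighbours in this order, Tgfb3 and Smad7 alone did not overlap over the 8 libraries. In HFSC, Tgfbi stood at 1118 TPM (SD 445, n = 10), with a lowest library of 633 TPM and no overlap with the next gene, Tgfb3, at a mean of 34.1 and a highest library of 70.5 TPM. Below Tgfb3 every neighbour overlapped: Ltbp1 (24.5), Tgfbr2 (17.3), Tgfbr3 (10.2), Tgfbr1 (10.1), Smad7 (7.65), Tgfb2 (6.74), Tmeff1 (6.04) and Tgfb1 (4.08 TPM). Tgfb2 was thus the ligand with the highest mean in DP and Tgfb3 the one in HFSC. Since transcripts were estimated in DP and exons counted in HFSC, no test was made between the cell types.

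Among the ligands, Tgfb2 had the lower values in GR KO of both cell types. In DP, Tgfb2 (chromosome 1, 186622792 to 186705989 on GRCm38, minus strand) stood at 161 and 110.2 CPM in Sham, 77.4 and 144 in ADX, 165 and 201 in Control, and 139 and 87.2 in GR KO. Both GR KO libraries lay below both Control libraries, while Sham and ADX overlapped. The log2 fold change was −0.70 (SE 0.37, edgeR adjusted p = 0.412) after GR deletion and −0.29 (SE 0.37, adjusted p = 0.785) after adrenalectomy. In HFSC, Tgfb2 stood at 14.2 and 14.9 CPM in Sham, 12.2 and 18.02 in ADX, 16.8 and 13.5 in ADX+CORT, 20.1 and 22.5 in Control, and 17.25 and 10.1 in GR KO. The Control libraries were the highest of the 10, and the 6 libraries of the surgical groups overlapped. After GR deletion the value in HFSC was −0.64 (SE 0.36, edgeR adjusted p = 0.484).

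Tgfb1 (chromosome 7, 25687002 to 25705077) encodes the ligand best known from wounds and immune regulation. In DP it stood at 92.5 and 40.8 CPM in Sham, 44.2 and 68.8 in ADX, 23.4 and 16.2 in Control, and 41.6 and 32.2 in GR KO. Both Control libraries were lower than every other DP library, those of Sham and ADX included. The log2 fold change after GR deletion was 0.90 (SE 0.43, edgeR adjusted p = 0.36). In HFSC, Tgfb1 stood at 11.2 and 4.94 CPM in Sham, 8.58 and 9.36 in ADX, 10.8 and 10.5 in ADX+CORT, 6.34 and 4.93 in Control, and 8.65 and 7.69 in GR KO. Both GR KO libraries lay above both Control libraries, and both ADX+CORT libraries above both ADX libraries. The values were 0.54 (SE 0.46, edgeR adjusted p = 0.702) and 0.25 (SE 0.46, adjusted p = 0.83). Tgfb3 (chromosome 12, 86056745 to 86079041, minus strand) had its highest values in GR KO. In HFSC it stood at 46.1 and 28.5 CPM in Sham, 27.4 and 26.6 in ADX, 50.9 and 36.05 in ADX+CORT, 34.1 and 56.1 in Control, and 64.8 and 95.1 in GR KO. Both ADX libraries lay below both libraries of Sham and of ADX+CORT, and the GR KO libraries were above all others. The log2 fold changes were −0.47 (SE 0.33) after adrenalectomy, 0.69 (SE 0.33) for ADX+CORT against ADX and 0.82 (SE 0.32) after GR deletion, with edgeR adjusted p = 0.524, 0.271 and 0.29. The value after adrenalectomy was −0.079 without Sham replicate 1 and −0.77 without Sham replicate 2. That for ADX+CORT was 0.42 without ADX+CORT replicate 1, and that after GR deletion 0.51 without Control replicate 1 and 0.52 without GR KO replicate 2. In DP, Tgfb3 stood at 56.1 and 33.3 CPM in Sham, 49.6 and 39.96 in ADX, 97.7 and 55.3 in Control, and 174 and 87.5 in GR KO. GR KO and Control overlapped there (0.77, SE 0.42, edgeR adjusted p = 0.427), with values of 0.19 without GR KO replicate 1 and 0.24 without Control replicate 2. Exons of Tgfb2, Tgfb3 and Tgfbr3 overlap annotated genes (Gm29491; Gm37804 and Gm48008; Gm43422), and without strand their reads cannot be told apart.

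**Figure D2:**
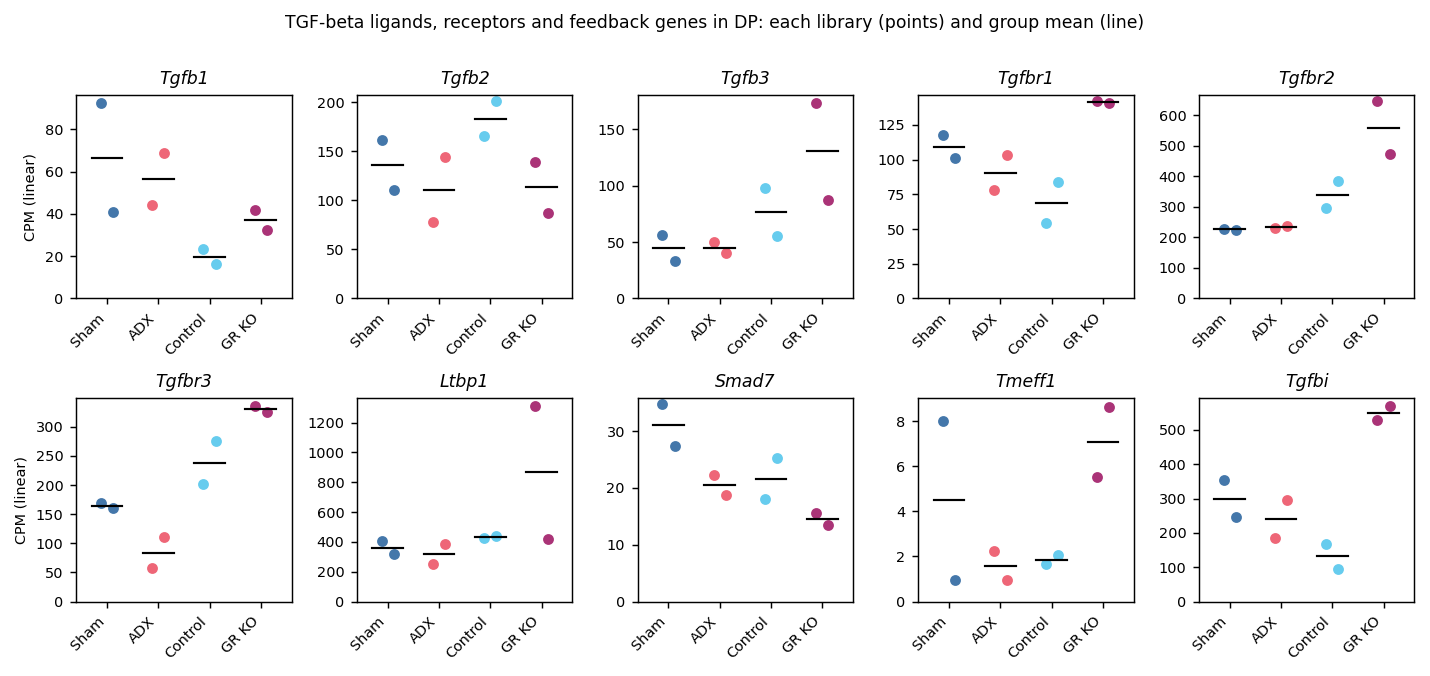
CPM (linear y axis from 0) of the 10 genes in each DP library (points) with the mean of each group of 2 (lines). Tgfbi sits at 529 and 569 CPM in GR KO and at 94.0 to 353 CPM in the other 6 libraries, and Ltbp1 is high in only 1 of the GR KO libraries (1312 CPM).

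All 3 receptor genes had both GR KO libraries above both Control libraries in DP, without a call in edgeR. Tgfbr1 (chromosome 4, 47353222 to 47414931), the type I receptor kinase, stood at 117.5 and 101 CPM in Sham, 78.2 and 103 in ADX, 54.2 and 83.8 in Control, and 142 and 141 in GR KO. GR KO libraries were the highest of the 8 and almost equal. The log2 fold change was 1.04 (SE 0.29, edgeR adjusted p = 0.116). DESeq2 called it (0.94, adjusted p = 0.0413, range over the alternatives 0.0413 to 0.713). Tgfbr2 (chromosome 9, 116084293 to 116175360, minus strand), the type II receptor kinase that binds ligand, stood at 228 and 223 CPM in Sham, 231 and 236 in ADX, 294 and 384 in Control, and 645 and 472 in GR KO. It was almost level in the 4 libraries of the surgical experiment and higher in all 4 of the other experiment. After GR deletion its value was 0.72 (SE 0.27, edgeR adjusted p = 0.232). Tgfbr3 (chromosome 5, 107106570 to 107289629, minus strand) encodes betaglycan, a co-receptor that presents TGF-beta 2 to the type II receptor. It stood at 169 and 159.9 CPM in Sham, 57.4 and 110.1 in ADX, 201 and 276 in Control, and 336 and 326 in GR KO. Tgfbr3 was lower in both ADX libraries and higher in both GR KO libraries than in their controls. The log2 fold changes were −0.97 (SE 0.33, edgeR adjusted p = 0.318) after adrenalectomy and 0.47 (SE 0.33, adjusted p = 0.55) after GR deletion, and the former was −0.64 without ADX replicate 1 and −1.47 without ADX replicate 2. The value after GR deletion was 0.11 without Control replicate 1.

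In HFSC the receptors stayed within narrow ranges and overlapped in all comparisons but 2. Tgfbr1 ran from 15.99 to 36.2 CPM over the 10 libraries (median 25.6), Tgfbr2 from 25.5 to 48.5 (median 32.6) and Tgfbr3 from 18.7 to 39.1 CPM (median 26.6). Tgfbr3 stood at 22.15 and 26.1 CPM in Sham and at 27.1 and 33.4 in ADX, without overlap (0.33, SE 0.38, edgeR adjusted p = 0.736). Tgfbr1 stood at 34.95 and 31.8 CPM in Sham and at 31.25 and 22.5 in ADX+CORT, also without overlap (−0.31, SE 0.31, edgeR adjusted p = 0.945). After GR deletion in HFSC the values were −0.16 for Tgfbr1, 0.04 for Tgfbr2 and 0.06 for Tgfbr3, each with an SE of 0.31 to 0.38.

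**Figure D3:**
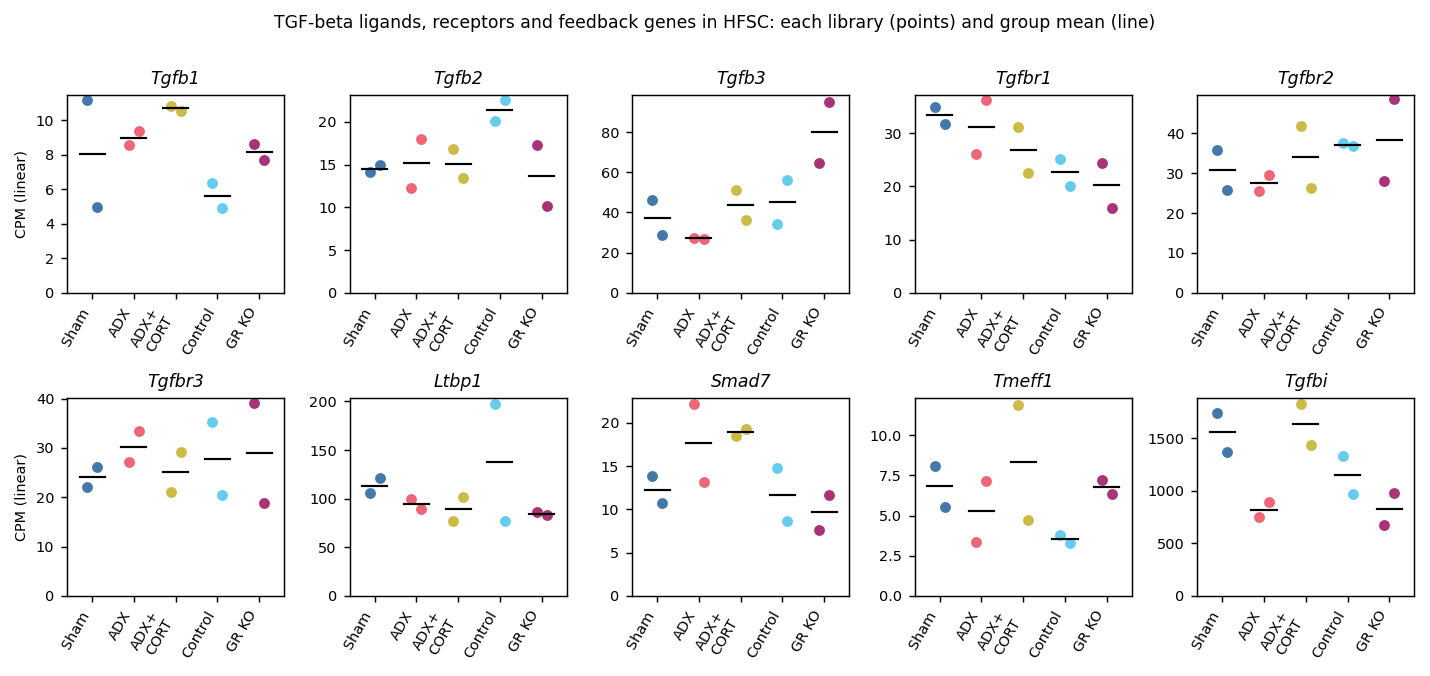
CPM (linear y axis from 0) of the 10 genes in each HFSC library (points) with the mean of each group of 2 (lines). Tgfbi is lower in ADX (752 and 893 CPM) than in Sham and ADX+CORT (1375 to 1828 CPM), and Tgfb3 is highest in GR KO.

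Ltbp1 (chromosome 17, 75005568 to 75392512) encodes latent TGF-beta binding protein 1, which tethers the latent ligand to fibrillin and fibronectin fibres. In DP it stood at 405 and 317 CPM in Sham, 252 and 388 in ADX, 426 and 438 in Control, and 1312 and 419.5 in GR KO. A single library, GR KO replicate 1, stood apart, and the other lay just below both Control libraries. The log2 fold change was 1.003 (SE 0.46, edgeR adjusted p = 0.342). Without GR KO replicate 1 this value was −0.038. That library also held the highest immune and muscle marker sums (2712 and 463 CPM), whose part in the result was not tested. In HFSC, Ltbp1 stood at 106 and 121 CPM in Sham, 100.1 and 89.1 in ADX, 77.5 and 101 in ADX+CORT, 197.5 and 77.5 in Control, and 86.0 and 83.0 in GR KO. Control replicate 1 was the highest library, and both ADX and both ADX+CORT libraries lay below both Sham libraries. Its values were −0.26 (SE 0.34) after adrenalectomy, −0.35 (SE 0.34) for ADX+CORT against Sham and −0.70 (SE 0.34) after GR deletion, with edgeR adjusted p = 0.772, 0.945 and 0.409.

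Ltbp1 is known to be transcribed from 2 start regions, which give a long and a short protein, and the DP files resolve its transcripts. Both promoters are printed because the share of the long transcript Ltbp1-201 differed between the experiments. They are the 250 bases before the RefSeq starts on GRCm38.p6, plus strand, at chr17:75005279-75005528 (long form) and chr17:75178531-75178780 (short forms).
Ltbp1 long form promoter: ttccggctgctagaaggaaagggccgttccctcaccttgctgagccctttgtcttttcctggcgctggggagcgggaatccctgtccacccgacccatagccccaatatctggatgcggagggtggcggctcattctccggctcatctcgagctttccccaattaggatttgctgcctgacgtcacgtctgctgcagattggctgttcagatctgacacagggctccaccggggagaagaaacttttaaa
Ltbp1 short form promoter: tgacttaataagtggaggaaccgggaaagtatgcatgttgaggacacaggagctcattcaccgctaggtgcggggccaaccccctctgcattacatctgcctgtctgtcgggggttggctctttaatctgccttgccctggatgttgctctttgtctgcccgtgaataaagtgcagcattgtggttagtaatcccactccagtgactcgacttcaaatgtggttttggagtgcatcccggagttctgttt
The starts of Ltbp1-201 and the first short transcript lie 173242 bases apart in GENCODE. The long form held 3.8% and 6.50% of the estimated Ltbp1 reads in Sham DP, 0.845% and 0% in ADX, 24.4% and 14.1% in Control, and 33.6% and 20.5% in GR KO. All 4 libraries of the GR experiment lay above all 4 of the surgical experiment, and GR KO overlapped Control. This holds for Ltbp1-201 alone: Ltbp1-207, a non-coding transcript that also starts in the long region, held 9.41% in Sham replicate 2 and 17.15% in ADX replicate 1, and 0.362% to 3.91% in the other libraries. The highest surgical library and the lowest of the GR experiment had 95% Wilson intervals of 5.77% to 7.31% and 13.2% to 15.1%. The 0 of 3312 reads in ADX replicate 2 allow a share of up to 0.0906%. Such intervals and limits cover counting error only, not the estimation that assigns reads to transcripts. Strain, operation, tamoxifen and experiment differ together between these libraries and cannot be told apart. The protein-coding short forms held 51.3% to 82.6% over the libraries, with the GR experiment (65.1% to 77.7%) inside the range of the surgical one. A transcript with a retained intron, Ltbp1-206, held 29.9% and 41.4% in ADX and 0.176% to 11.2% in the other groups. Retained-intron transcripts of all genes held 7.39% and 7.29% of the counts in ADX and 4.96% to 7.08% elsewhere, and their part in the Ltbp1 share was not tested.

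**Figure D4:**
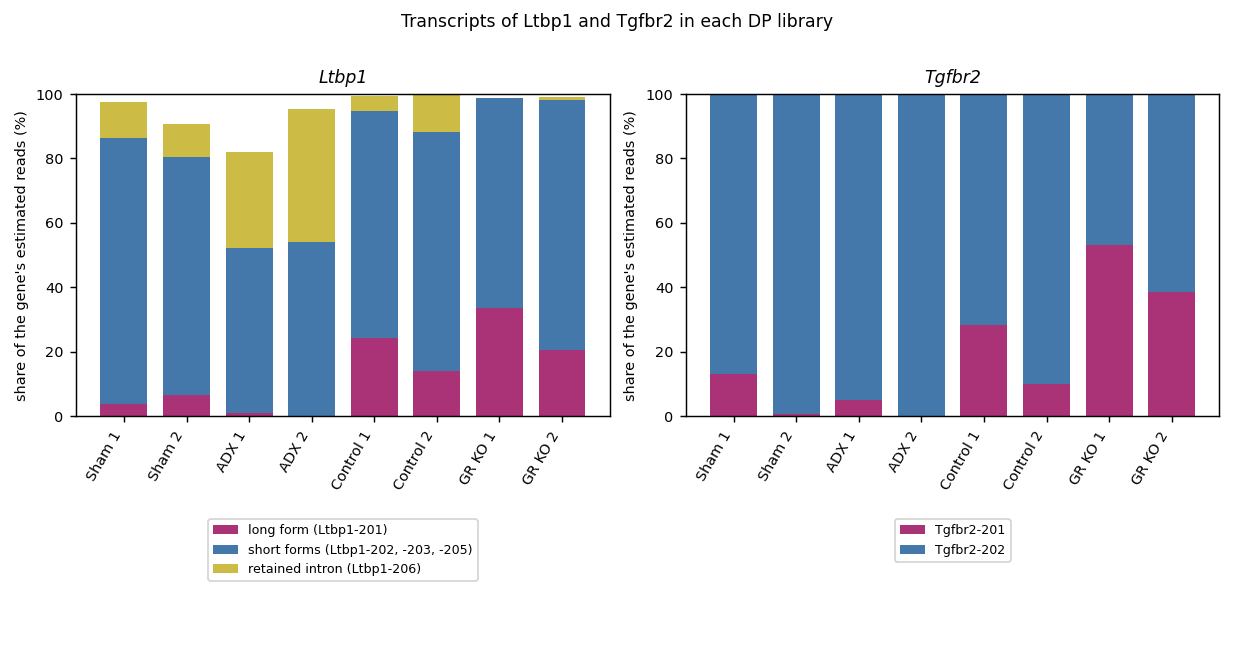
Share of the estimated reads of Ltbp1 (left) and Tgfbr2 (right) given to each transcript (stacked bars, linear y axis in percent) in each of the 8 DP libraries, with the remaining transcripts of Ltbp1 not drawn. The long form of Ltbp1 is above 14% in Control and GR KO and at most 6.50% in Sham and ADX, and the share of Tgfbr2-201 is highest in GR KO (53.1% and 38.4%).

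Tgfbr2 has 2 transcripts in the annotation, and its reads were divided between them unequally. Tgfbr2-202 holds an additional coding exon, exon 2 of 8, of 75 bases or 25 codons, at chr9:116158271-116158345 on the minus strand of GRCm38. It is known to encode an insertion in the ligand-binding extracellular part of the receptor. It is printed with 15 bases on either side, the exon in capitals, because it sets the 2 proteins apart. Reads over it were not counted separately.
Tgfbr2 exon 2: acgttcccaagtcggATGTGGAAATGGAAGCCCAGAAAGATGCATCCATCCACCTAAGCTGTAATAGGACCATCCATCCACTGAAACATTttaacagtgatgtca
The form without this exon, Tgfbr2-201, held 13.1% and 0.576% of the estimated Tgfbr2 reads in Sham, 5.12% and 0.115% in ADX, 28.3% and 10.03% in Control, and 53.1% and 38.4% in GR KO. Both GR KO libraries lay above both Control libraries. The Wilson interval of the lower GR KO library was 37.2% to 39.7% and that of the higher Control library 26.8% to 29.7%. These intervals cover counting error only, not the wider spread between libraries of the same group. The forms also differ in their last exon, of 1629 bases in Tgfbr2-201 and 6265 in Tgfbr2-202. The shares may therefore rest on reads of either region, and no test was run on them. Tgfbr1 had a further start as well, that of Tgfbr1-203, which held 30.5% and 15.5% of its reads in ADX. The shares were 2.47% and 11.5% in Sham and at most 6.67% in the GR experiment.

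Smad7 (chromosome 18) is a feedback gene that blocks the type I receptor and is itself induced by the pathway. It had lower values in both altered DP groups. It stood at 34.8 and 27.3 CPM in Sham, 22.2 and 18.75 in ADX, 17.97 and 25.2 in Control, and 15.6 and 13.4 in GR KO. Neither pair of groups overlapped. The log2 fold changes were −0.60 (SE 0.37, edgeR adjusted p = 0.568) after adrenalectomy and −0.57 (SE 0.38, adjusted p = 0.521) after GR deletion. In HFSC, Smad7 stood at 13.9 and 10.7 CPM in Sham, 22.15 and 13.2 in ADX, 18.5 and 19.3 in ADX+CORT, 14.8 and 8.62 in Control, and 7.6 and 11.7 in GR KO. Only ADX+CORT and Sham did not overlap (0.62, SE 0.40, edgeR adjusted p = 0.858).

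Tmeff1 (chromosome 4, 48585174 to 48663131), which encodes a transmembrane protein with follistatin domains, was the scarcest of the genes in DP. It had 92 and 12 reads in Sham DP, 16 and 8 in ADX, 21 and 22 in Control, and 68 and 109 in GR KO. The Sham libraries were as far apart as the groups. Its log2 fold change was 1.93 (SE 1.04, edgeR adjusted p = 0.424) after GR deletion and −1.51 (SE 1.04, adjusted p = 0.604) after adrenalectomy. The latter was 0.65 without Sham DP replicate 1. In HFSC, Tmeff1 had 138 and 78 reads in Sham, 48 and 122 in ADX, 224 and 87 in ADX+CORT, 74 and 98 in Control, and 158 and 114 in GR KO. In CPM these were 8.11 and 5.51, 3.38 and 7.14, 11.9 and 4.72, 3.78 and 3.26, and 7.19 and 6.35. The surgical groups overlapped, and both GR KO libraries lay above both Control libraries. The value after GR deletion was 0.94 (SE 0.58, edgeR adjusted p = 0.542), beside 0.82 for Tgfb3 and −0.64 for Tgfb2 in the same cells.

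Tgfbi (chromosome 13, 56609523 to 56639562) encodes a secreted matrix protein named for its induction by TGF-beta, which binds integrins and collagens. In DP it stood at 353 and 246 CPM in Sham, 185 and 295 in ADX, 169 and 94.0 in Control, and 529 and 569 in GR KO. GR KO libraries were the highest of the 8 and Control libraries the lowest. Means were 131 ± 52.8 CPM in Control and 549 ± 28.2 CPM in GR KO (SD, n = 2 in both). Tgfbi rose by 2.06 on the log2 scale (SE 0.37) with an edgeR adjusted p = 0.0366. The call was lost without Control replicate 2 (1.52, adjusted p = 0.329), without GR KO replicate 1 (2.11, adjusted p = 0.0527), without GR KO replicate 2 (2.02, adjusted p = 0.0635) and when the Sham and ADX libraries were kept out of the fit (1.93, adjusted p = 0.0704), all in edgeR. It was kept without Control replicate 1 and in DESeq2 (adjusted p = 0.0378 and 9.8e-06). Over all alternatives the adjusted p ran from 3.84e-07 to 0.329. After adrenalectomy Sham and ADX overlapped (−0.32, SE 0.35, edgeR adjusted p = 0.748).

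Markers of other cells also differed between GR KO and Control DP. The 10 dermal fibroblast markers summed to 7230 and 8190 CPM in GR KO DP, against 3291 and 2673 in Control, 4347 and 4761 in Sham, and 2559 and 4306 in ADX. All 10 were detected in every group, led by Lum (943 to 4955 CPM) and Col6a3 (439 to 1739 CPM), and none passed the test after GR deletion (8 higher, median 1.46). Their part in the rise of Tgfbi was not tested. The 14 stem cell markers summed to 3522 and 4280 CPM in GR KO DP, 1094 and 837 in Control, 3102 and 5341 in Sham, and 1677 and 1245 in ADX. Of the 13 tested after GR deletion 8 were higher, with a median of 0.14 beside 0.17 over all genes. Postn and Cd34, the most abundant of them, rose (2.88 and 2.14, edgeR adjusted p = 0.0212 and 0.0273). Postn stood at 1898 and 3103 CPM in GR KO and 267 and 411 in Control, beside 2426 and 4273 in Sham and 1267 and 871 in ADX. Cd34 stood at 947 and 943 CPM in GR KO and 275 and 152.5 in Control. Together they held most of the summed CPM in GR KO, so the sum does not stand for the other genes of the list. The call of Cd34 was lost without Control replicate 2 (edgeR adjusted p = 0.213) and when Sham and ADX were kept out of the fit (0.0704). All 8 skeletal muscle markers had higher values (median 3.57, none called). They summed to 463 CPM in GR KO replicate 1 but to 28.9 CPM in replicate 2, which lay between the Control libraries (38.6 and 17.5 CPM). Of 11 epidermal markers 8 were lower (median −2.03), of which Lor fell (−5.95, edgeR adjusted p = 0.0165) and was named after its value was seen. Epidermal markers summed to 887 and 65.95 CPM in GR KO and 1233 and 873 in Control, with overlap. Melanocyte markers summed to 30.04 and 30.12 CPM in GR KO and 70.8 and 92.3 in Control. The part of these lists in the rise of Tgfbi was not tested. Dermal papilla markers summed to 3888 and 3983 CPM in GR KO and 4264 and 6971 in Control, with none of 17 called. Immune markers summed to 2712 CPM in GR KO replicate 1 and 40.6 CPM in replicate 2, against 329.5 and 170 CPM in Control. Of the 10 tested, 9 were higher in GR KO (median 2.68, none called). Their part in the rise of Tgfbi was not tested either. In bulk libraries fewer cells of a type and less RNA per cell cannot be told apart.

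In HFSC, Tgfbi was among the genes whose groups did not overlap around adrenalectomy. It stood at 1746 and 1375 CPM in Sham, 752 and 893 in ADX, 1828 and 1441 in ADX+CORT, 1334 and 970 in Control, and 676 and 977 in GR KO. Both ADX libraries lay below both Sham and both ADX+CORT libraries, and Sham and ADX+CORT overlapped, as did Control and GR KO. The log2 fold change was −0.92 (SE 0.27, edgeR adjusted p = 0.129) for ADX against Sham and 0.99 (SE 0.27, adjusted p = 0.0756) for ADX+CORT against ADX. Neither passed in edgeR with the filter on low counts. Without it both did (edgeR adjusted p = 0.0193 and 0.00743), and DESeq2 called both (adjusted p = 0.00721 and 0.00274). Over the alternatives the adjusted p ran from 0.00721 to 0.592 and from 0.00274 to 0.473. ADX+CORT differed from Sham by 0.07 (SE 0.27, edgeR adjusted p = 1), and GR KO from Control by −0.48 (SE 0.27, adjusted p = 0.485).

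The summed stem cell markers of HFSC were also lower in ADX than in Sham and ADX+CORT. They stood at 56710 and 60850 CPM in Sham, 29980 and 41090 in ADX, 55850 and 53630 in ADX+CORT, 57120 and 63270 in Control, and 28590 and 39150 in GR KO. ADX and GR KO libraries were lower than all others. Krt15 (11440 to 36210 CPM) and Krt5 (3578 to 9033 CPM) were the most abundant genes of the list and weigh most in the sum. Gene by gene, 13 of the 14 were lower and 1 higher in ADX than in Sham (median −0.63, none called in edgeR). The 12 epidermal markers summed to 3240 and 5097 CPM in Sham, 6101 and 6925 in ADX, 6934 and 9191 in ADX+CORT, 2838 and 3068 in Control, and 8505 and 4274 in GR KO. The part of either list in the values of Tgfbi was not tested.

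**Figure D5:**
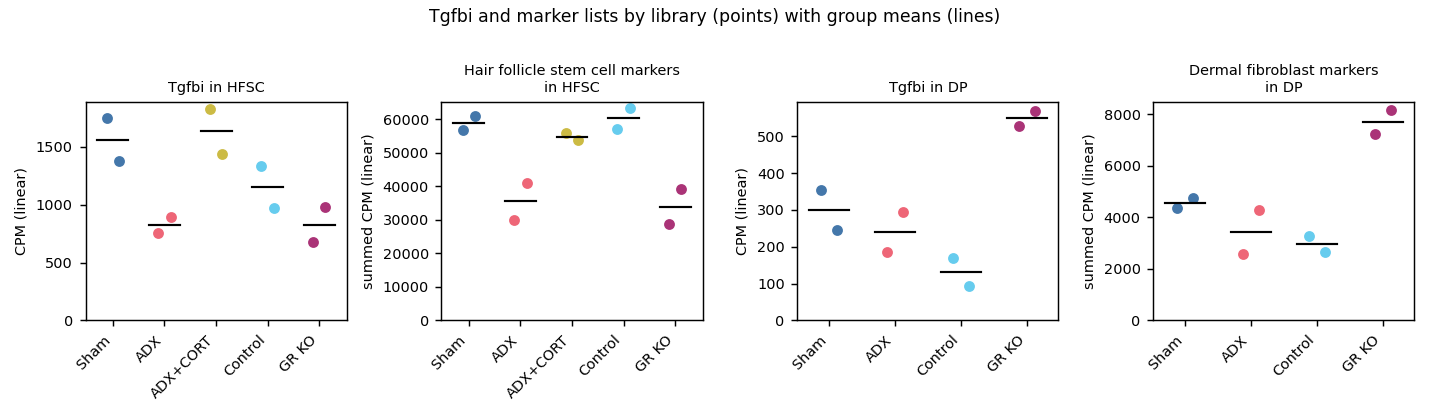
CPM of Tgfbi and summed CPM of marker lists (linear y axes from 0) in each library (points) with group means (lines), HFSC in the left pair of panels and DP in the right pair. In HFSC the stem cell markers are lowest in ADX and GR KO, and in DP the fibroblast markers are highest in GR KO (7230 and 8190 CPM), as Tgfbi is.

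The sequence before the start of Tgfbi is printed because this was the one gene called. Of the 250 bases before its RefSeq start, the 187 that lie before the first GENCODE exon are shown. They are chr13:56609336-56609522 (GRCm38.p6, plus strand), with an SP1 box in capitals.
Tgfbi promoter: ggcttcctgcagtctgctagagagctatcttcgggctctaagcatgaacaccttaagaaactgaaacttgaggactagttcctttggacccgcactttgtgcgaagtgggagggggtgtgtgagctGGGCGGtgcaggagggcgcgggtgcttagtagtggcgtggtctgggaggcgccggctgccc
Promoters were listed for 7 of the 10 genes, 9 in all. Both strands of each were searched for a loose form of the glucocorticoid response element (GNACA and TGTNC with 3 bases between). The other motifs searched were the receptor half-site AGAACA, the SMAD palindrome GTCTAGAC, the SP1 box GGGCGG and the E-box CACGTG. Of 32851 promoters in the table, 0.387%, 16.1%, 0.167%, 32.7% and 6.02% held them within at most 250 bases before the start. Tgfb1, Tgfbi, Tgfbr1 and Tmeff1 held the SP1 box and Tgfb2 the E-box, and the letters of the other 3 motifs were not in these windows. A match describes the letters only.

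Other genes of the pathway were followed in 4 lists, which were chosen with earlier results of these data known. Over all genes tested in DP, 0.767% rose after GR deletion. Of 18 genes of TGF-beta latency and activation, 4 rose in DP after GR deletion, 17 had higher values and the median was 1.40 beside 0.17 over all genes. Fbn1, the fibrillin to which latent complexes bind, stood at 1162 and 519 CPM in GR KO and 226 and 133 in Control (2.23, SE 0.41). Itgav, the alpha subunit of the integrins that release TGF-beta, stood at 166 and 151 CPM against 57.5 and 61.3 (1.41, SE 0.26). The gelatinase gene Mmp2 (1.604, SE 0.32) and the proteoglycan gene Bgn (1.38, SE 0.28), whose product binds TGF-beta, also passed. Of 20 genes that respond to TGF-beta, 5 rose, 16 had higher values and the median was 1.15. They were Postn (2.88, SE 0.42), a matricellular protein that is also on the stem cell list, the protease inhibitor Timp1 (2.89, SE 0.49), fibronectin Fn1 (3.37, SE 0.62) and the collagens Col3a1 (2.12, SE 0.39) and Col1a2 (2.18, SE 0.44). Col1a2 falls outside the rule for named genes and was added after its value was seen. Of 19 genes of the receptor and SMAD machinery, 1 rose, Pmepa1, an inhibitor of SMAD signalling that TGF-beta induces. It stood at 331 and 356 CPM in GR KO and 83.7 and 71.1 in Control (2.15, SE 0.29, edgeR adjusted p = 0.0212), and the list had 13 higher values and a median of 0.38. Of 15 activin genes and related inhibitors, 1 rose, the follistatin-like gene Fstl1 (1.92, SE 0.35), with 10 higher and a median of 0.58. The edgeR adjusted p of all 11 ran from 0.0212 to 0.048, and fibroblast markers were higher in the same libraries.

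These list calls depended on single libraries. Without Control replicate 2 none of the 11 was left (edgeR adjusted p from 0.0843 for Postn to 0.54 for Bgn). Without Control replicate 1 the calls of Fbn1, Postn, Fstl1, Mmp2, Bgn and Itgav were lost (0.0542 to 0.269). Without GR KO replicate 1 those of all but Pmepa1 and Postn were lost (0.056 to 0.13), and without GR KO replicate 2 those of Itgav, Col1a2, Mmp2 and Bgn (0.0793 to 0.119), in edgeR. With no other group in the fit Pmepa1 alone was left (0.0566 to 0.105 for the others). With median-of-ratios scaling Col1a2 and Bgn were lost, and with protein-coding transcripts only 6 of the 11.

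In DP after adrenalectomy no gene of the 4 lists passed in edgeR, and medians were −0.41 for latency and activation, −0.46 for responsive genes, −0.30 for the SMAD machinery and 0.00 for activins, beside 0.08 over all genes. That of the SMAD machinery was 0.11 without Sham replicate 1 and −0.51 without Sham replicate 2. Ltbp4 stood at 108 and 98.9 CPM in ADX and 227 and 276 in Sham (−1.28, SE 0.26, edgeR adjusted p = 0.183). Mmp2 stood at 392 and 636 CPM in ADX and 1235 and 1025 in Sham (−1.14, SE 0.31, edgeR adjusted p = 0.25). Of the 20 responsive genes 14 had lower values and 6 higher ones. Postn stood at 1267 and 871 CPM in ADX and 2426 and 4273 in Sham (−1.65, SE 0.40, edgeR adjusted p = 0.229). Acta2, a smooth muscle actin, was higher, at 3425 and 556 CPM in ADX and 103 and 133 in Sham (4.08, SE 0.91, edgeR adjusted p = 0.196). The pericyte and smooth muscle markers, which include Acta2, summed to 5966 and 1035 CPM against 368 and 459. The 12 epidermal markers summed to 648 and 337 CPM in ADX against 1535 and 5696. In HFSC, 1 responsive gene of 19 tested rose after adrenalectomy, as did 0.282% of all genes tested. It was the clock-linked repressor gene Bhlhe40, at 12.4 and 15.7 CPM in Sham and 39.5 and 41.3 in ADX (1.52, SE 0.28, edgeR adjusted p = 0.0472). That call was lost without Sham replicate 1 or 2 or ADX replicate 1 (edgeR adjusted p = 0.344, 0.153 and 0.172) and with the replicate number as a block (0.0668). After GR deletion in HFSC 1 responsive gene fell, as did 0.315% of all genes tested. It was Cyr61, a matricellular protein, at 2038 and 3006 CPM in Control and 909 and 509 in GR KO (−1.83, SE 0.31, edgeR adjusted p = 0.0327). Its edgeR adjusted p was 0.163 when Control replicate 2 was left out, 0.068 when GR KO replicate 2 was left out, and 0.0562 when no other group was fitted. In the same GR KO libraries the sum of stem cell markers was lower and that of epidermal markers higher than in Control, as given above. Of 14 stem cell markers 10 were lower and 4 higher, and Cd34 fell (−1.49). Of 12 epidermal markers 10 were higher and 2 lower. Klk7 and Krt79 rose (2.21 and 2.31), but Lor fell (−1.88, edgeR adjusted p = 0.0384). These genes were named after their values were seen. Dermal papilla markers summed to 199.6 and 244 CPM against 367 and 402 (10 of 12 tested lower), and fibroblast markers to 207 and 270.0 against 342 and 293 (9 of 10 lower, median −0.82). Their part in this was not tested. No other gene of the 4 lists passed in HFSC, including both ADX+CORT comparisons. Medians of the 4 lists in HFSC lay between −0.59 and 0.70.

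Whether GR deletion and adrenalectomy had different effects was tested as the difference between both log2 fold changes. The effects come from different experiments and strain backgrounds, with tamoxifen given in the GR experiment. A difference cannot be told apart from these. None of the 10 genes passed in either cell type. In DP 0.477% of all genes tested were called (0.349% higher, 0.128% lower). Tgfbi had a difference of 2.39 (SE 0.51, edgeR adjusted p = 0.0664), Tgfbr3 one of 1.44 (SE 0.47, adjusted p = 0.174) and Tgfbr1 one of 1.31 (SE 0.41, adjusted p = 0.166). DESeq2 called the difference of Tgfbi (adjusted p = 0.00104, range over the alternatives 3.75e-05 to 0.31). In 9 of 10 genes the difference was above 0 (Smad7, at 0.025, was at −0.15 with median-of-ratios scaling), with a median of 1.16 beside 0.11 over all genes. The median over all genes was −0.06 with median-of-ratios scaling, under which the 82 higher and 30 lower calls became 46 and 45, and Tgfbi had a difference of 2.22. Postn and Mmp2 had lower values after adrenalectomy (−1.65 and −1.14, not called) and rose after GR deletion (2.88 and 1.604). Of the 4 lists, these genes passed for the difference (4.53 and 2.74, edgeR adjusted p = 0.0245 and 0.0371). Both calls were lost without Sham replicate 2, ADX replicate 2 or Control replicate 2 (adjusted p from 0.0592 to 0.188), and that of Mmp2 also without the remaining Sham, ADX and Control libraries (0.055 to 0.0615). In HFSC no gene at all was called for this difference (0%) in edgeR, 121 were in DESeq2, and Tgfb3 had the smallest p of the 10 genes (1.29, SE 0.46, adjusted p = 0.388).

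Genes with the pattern most like that of 2 members were sought by the root mean square difference of log2 CPM, each gene centred on its own mean. For Tgfb2 over the 8 DP libraries they included St6galnac6 (0.107), Ints1 (0.173), Kif3c (0.183) and Plod3 (0.188), with 0.619 as the median over 11639 genes and 0.444 as the deviation of Tgfb2 from its own mean. For Tmeff1 over the 10 HFSC libraries they were Setdb1 (0.252), Zfp169 (0.27), Usp38 (0.274), Yod1 (0.277) and Tlr3 (0.279), with a median of 0.617 over 10528 genes. Both sets of libraries span 2 strain backgrounds and 2 experiments, and these values describe likeness only.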

How the data were processed

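Per the labels' protocols, RNA with an integrity number of at least 8 was amplified with SMART-Seq v4 and made into Nextera XT libraries, which do not mark strand. For DP the authors deposited expected counts per transcript. The submitters' processing notes name Salmon and mm10 for them. For HFSC the authors deposited whole-number counts per gene, for which the file headers name featureCounts 1.6.1, exons as features and 30 as the lowest mapping quality. Trim Galore 0.4.1 and STAR 2.5.3 stand in the submitters' processing notes. Here the 134967 DP transcripts were summed to gene symbols with GENCODE M21 (GRCm38, which mm10 denotes, 150 without a match) and rounded. In HFSC, 27 gene names turned into dates were restored. Precision is limited by 2 libraries a group and by the depths given above.

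In edgeR 4.0.16 (R 4.3.3), 1 model per cell type had a coefficient for each group, with TMM scaling, low counts filtered by default (23463 DP and 15231 HFSC genes kept) and the quasi-likelihood test on 4 and 5 residual degrees of freedom. CPM use the scaled library sizes. SE were derived from the F statistic. As alternatives, DESeq2 1.42.0, scaling by median of ratios, no filter, fits restricted to the groups in question, a block for the replicate number and leaving out each library were run, and, chosen after the data were seen, protein-coding transcripts only. Named genes were the 10 members, up to 4 called or otherwise up to 2 genes per pathway list with the smallest p, the 2 most abundant genes per marker list and the 5 genes most like Tgfb2 and Tmeff1 (mean of at least 5 CPM, pseudocount 0.5, predicted genes and pseudogenes left out), with Nr3c1 as the deleted gene. Of the genes most like Tgfb2, 1 is not reported here. The 4 pathway and 9 marker lists and the members were chosen with earlier results of these data known. Steps were tested on simulated data. Promoters came from RefSeq (GRCm38.p6).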

Additional observations from a re-analysis of the deposited data

How the results depend on the processing

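The count of all genes called, in the order DESeq2, no filter on low counts and replicate block, was 505, 894 and 10 for ADX DP (4 as reported), 1554, 1456 and 470 for GR KO DP (361), 1234, 1305 and 196 for the DP difference (112), 768, 888 and 9 for ADX HFSC (45), 683, 840 and 137 for GR KO HFSC (150), and 0 under the block for both ADX+CORT comparisons and the HFSC difference, which had 1278, 53 and 121 in DESeq2 and 1309 against ADX, 184 against Sham and 256 without the filter. A fit of only the groups compared gave 0 for ADX DP, 142 for GR KO DP, 93 for ADX HFSC and 2 for ADX+CORT against Sham, and it is the same fit for the DP difference. Protein-coding transcripts gave 8 for ADX DP and 34 for the DP difference. Median-of-ratios scaling split the calls of GR KO DP 134 higher to 247 lower (180 to 181 as reported). Leaving out 1 library gave 1 to 12 (ADX DP), 19 to 226 (GR KO DP), 3 to 221 (DP difference), 0 to 235 (ADX HFSC), 0 to 549 (ADX+CORT against ADX), 0 to 4 (against Sham), 5 to 336 (GR KO HFSC) and 0 to 20 (HFSC difference).

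Of the 10 members, DESeq2 called 2 in GR KO DP (Tgfbr1 with Tgfbi), and 1, Tgfbi, in the DP difference, ADX HFSC and ADX+CORT against ADX. Without the filter Tgfbi was called in the same 3 (2.25, −0.92 and 0.99), and in a fit of only the 2 groups 0 were called in GR KO DP. Leaving out 1 library gave 0 to 1 there, with Tgfbi at 1.52 to 2.39. Replicate numbers share only a number (correlations of deviations 0.316 in Control and GR KO DP, −0.193 in Sham and ADX DP), and with the number as a block, which left Tgfbi in GR KO DP at 2.09 (edgeR adjusted p = 0.0301), no call of the 10 members changed, and of the pathway lists only that of Bhlhe40 in ADX HFSC was lost (edgeR adjusted p = 0.0668).

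Directions turned when 1 library was left out, none of them of a called value, and the cause was not tested. The ranges in ADX DP were −0.76 to 0.43 for Tgfb1, −0.76 to 0.022 for Tgfb2, −0.36 to 0.38 for Tgfb3, −0.012 to 0.087 for Tgfbr2, −0.47 to 0.039 for Ltbp1 and −2.37 to 0.65 for Tmeff1. In GR KO DP the range for Ltbp1 was −0.038 to 1.62. In ADX HFSC they were −0.32 to 0.86 for Tgfb1, −0.24 to 0.31 for Tgfb2, −0.35 to 0.12 for Tgfbr1, −0.38 to 0.10 for Tgfbr2 and −1.003 to 0.067 for Tmeff1. For ADX+CORT against ADX they were −0.25 to 0.29 for Tgfb2, −0.47 to 0.028 for Tgfbr1, −0.073 to 0.57 for Tgfbr2, −0.32 to 0.10 for Ltbp1, −0.24 to 0.52 for Smad7 and −0.16 to 1.28 for Tmeff1, and against Sham −0.11 to 0.25 for Tgfbi, −0.064 to 1.11 for Tgfb1, −0.11 to 0.18 for Tgfb2, −0.084 to 0.61 for Tgfb3, −0.23 to 0.41 for Tgfbr2, −0.22 to 0.27 for Tgfbr3 and −0.53 to 0.78 for Tmeff1. In GR KO HFSC they were −0.50 to 0.11 for Tgfbr1, −0.41 to 0.38 for Tgfbr2, −0.57 to 0.50 for Tgfbr3, −1.23 to 0.12 for Ltbp1 and −0.62 to 0.16 for Smad7. In the difference between effects, Smad7 turned in DP (−0.36 to 0.23, and −0.34 with protein-coding transcripts, −0.15 with DESeq2 and with median-of-ratios scaling and −0.12 without the filter), and Tgfb1 (−0.32 to 0.85), Tgfbr1 (−0.40 to 0.21), Tgfbr2 (−0.25 to 0.55), Tgfbr3 (−0.89 to 0.18) and Ltbp1 (−0.98 to 0.39) in HFSC. In ADX DP, Tgfb1 was 0.21 with protein-coding transcripts only and Tgfb3 −0.020 without the filter. Of the values of single members given in the text, 361 kept direction and side of the threshold under such settings. There 6 turned direction, 7 gained a call and 1 lost it. With a library left out 272 kept both and 53 turned direction, an arm of 1 library being taken to vary like the other groups. The depth limits Tmeff1 in DP, with 8 to 109 reads, the most.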
